A study of Mus musculus with 3 samples.

Results

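The interferon regulatory factors are a family of transcription factors that share a DNA-binding domain for the interferon-stimulated response element and related sites. Members were found by symbol in the platform annotation of the value table. They were 8 genes (Irf1, Irf2, Irf3, Irf4, Irf5, Irf7, Irf8 and Irf9) on 13 rows, among 15055 named genes and 31058 genes and unnamed probes tested.

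The samples compared late with early growth of mouse mammary tumours. Late carcinomas were outgrowths taken at 18 weeks, and adenomas were outgrowths taken at 5 weeks. Both stages arose, per the labels, from single hyperplasias of pubertal MMTV-PyMT x B-actin-GFP donors, placed into syngeneic hosts, so both carry the polyoma middle T transgene under the MMTV promoter, which is active mainly in mammary epithelium, and a GFP transgene. On each of 3 arrays with 2 channels, total RNA of a late carcinoma (Cy3) was set against that of an adenoma (Cy5). The labels name no sorting of cells, so host cells may be part of an outgrowth's RNA. They do not say either whether the arrays came from separate animals. The p-values therefore speak only of how the 3 arrays scatter, and that scatter may be technical.

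The values are log ratios of 38976 rows per array, read as log2 of adenoma over late carcinoma. A value below 0 is then likely higher in the late carcinomas and a value above 0 likely higher in the adenomas. The numerator and the log base are not stated, and with late carcinoma on top of the ratio each direction given here would be the opposite. Dye orientation was the same on the 3 arrays, so dye and stage cannot be told apart. Ratios hold no level, so neither the amount of a factor's RNA nor the presence of a cell type can be read from them, and in such tissue fewer cells of a type and less RNA per cell cannot be told apart. The number of arrays limits the precision. Pearson's r between arrays, over genes and probes, which are not independent replicates, was 0.610 to 0.744.

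In this pathway, sensors of foreign or misplaced nucleic acid activate the kinases TBK1 and IKK-epsilon, which phosphorylate IRF3 and IRF7. These factors then induce the type I interferons. Interferon signals back through its receptor, Janus kinases and a complex of STAT proteins with IRF9, which switches on antiviral genes and, in a positive loop, Irf7 itself. IRF1 activates and IRF2 mostly represses genes with the same response element, IRF5 acts downstream of Toll-like receptors, and IRF4 and IRF8 serve mainly lymphoid and myeloid cells, often bound to DNA together with PU.1, the product of Spi1.

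Irf7 and Irf2 carried the large ratios of the family, on opposite sides of 0. Their promoter windows are shown because these are the members whose ratios stood out, and that of Irf1 because it holds a match to the STAT site through which interferon gamma is known to induce this gene. Windows run from 250 bases before to 50 bases after a gene's start, come from RefSeq on GRCm38.p6, and are written along the gene's own strand. Capitals mark matches, on either strand, to GAAANNGAAA (the core of the interferon-stimulated response element), TTCNNNGAA (the STAT site of interferon gamma, which reads the same on both strands) and GGAANNGAAA (the composite site of PU.1 with IRF4 or IRF8). The windows lie at chr7:141266375-141266674 (minus strand) for Irf7, chr8:46739495-46739794 (plus strand) for Irf2 and chr11:53769764-53770063 (plus strand) for the first of the windows of Irf1.
Irf7: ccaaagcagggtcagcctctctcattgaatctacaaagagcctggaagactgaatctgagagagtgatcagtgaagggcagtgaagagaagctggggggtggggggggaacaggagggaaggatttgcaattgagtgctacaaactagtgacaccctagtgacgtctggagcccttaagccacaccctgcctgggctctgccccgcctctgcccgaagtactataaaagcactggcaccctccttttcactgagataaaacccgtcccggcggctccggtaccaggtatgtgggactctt
Irf2: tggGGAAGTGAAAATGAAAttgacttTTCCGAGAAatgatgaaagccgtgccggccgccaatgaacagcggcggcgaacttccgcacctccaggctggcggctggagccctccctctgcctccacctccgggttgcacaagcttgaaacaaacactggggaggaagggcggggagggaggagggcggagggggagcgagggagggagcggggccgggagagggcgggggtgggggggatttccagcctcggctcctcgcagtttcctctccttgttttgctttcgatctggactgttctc
Irf1: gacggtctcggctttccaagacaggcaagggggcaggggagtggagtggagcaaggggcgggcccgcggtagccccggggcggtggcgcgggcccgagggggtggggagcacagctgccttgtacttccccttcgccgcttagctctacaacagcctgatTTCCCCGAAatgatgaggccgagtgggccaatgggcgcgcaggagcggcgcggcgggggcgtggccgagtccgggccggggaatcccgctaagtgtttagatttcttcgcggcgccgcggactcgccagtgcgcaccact

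The Irf2 window held 1 match to each motif. GGAAGTGAAA began 247 bases and GAAAATGAAA 241 bases before the start, and these matches overlap. TTCCGAGAA began 224 bases before the start. The Irf1 window held TTCCCCGAA, 90 bases before the start, and 1 window of Irf8 held TTCTCGGAA and TTCAGAGAA. No match to these letters lay in the windows of Irf7, Irf3, Irf4, Irf5 and Irf9, which says only that these letters are not there. Among all 32851 windows of this length, 3.44% held GAAANNGAAA, 8.30% held TTCNNNGAA and 2.72% held GGAANNGAAA. A match is a description of the sequence and not a measured site.

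Among the factors that drive interferon production, Irf7, which amplifies type I interferon once it has been induced, lay far on the late carcinoma side. Its log2 ratio was -1.62, -0.70 and -1.46 on arrays 1, 2 and 3. All 3 arrays lay below 0, array 2 the least. The mean was -1.26 ± 0.49 (SD, n = 3 arrays), a 2.39-fold ratio toward late carcinoma, with a 95% interval of -1.70 to -0.81 and a limma adjusted p of 0.0118. Irf7 held place 15 from the lowest of 15055 named genes. Of 979 receptor genes of the nose (olfactory and vomeronasal), a background measured on the same arrays, 0 had a mean as low, their range being -0.88 to 1.33. That background was itself off 0, with a median of 0.34, 26 genes past the threshold below 0 and 426 above 0. Irf7 rested on 1 row, and its call was lost without array 3 (mean -1.16, limma adjusted p = 0.114). Array 3 bears on every call given here: without it, 1 of the 31058 genes and probes passed, and it was no gene of the family or of the lists below.

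Irf3, the constitutively present partner of Irf7 in the first wave of interferon induction, had log2 ratios of -0.28, -0.19 and -0.41. The 3 arrays lay below 0, close together, and the mean of -0.30 ± 0.11 (n = 3) did not pass (limma adjusted p = 0.0833, 95% interval -0.55 to -0.043). Its 3 rows had means of -0.30, -0.43 and -0.15. Array 2 was above 0 in the first of these rows and array 1 in the third, while the second row lay below 0 on all 3 arrays (limma adjusted p = 0.0411 with each row tested on its own). Irf3 passed with array weights (-0.34, limma adjusted p = 0.0258) and with each array centred on the receptor genes (-0.65, limma adjusted p = 0.00517). These settings called 38.8% and 61.6% of all genes and probes, against 25.1% without them. Receptor centring moves every mean down by construction, so its call is no separate evidence for Irf3.

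Irf5, which acts behind Toll-like receptors in myeloid and B cells, had log2 ratios of -0.010, -0.096 and 0.071 on its 1 row. These values lay on both sides of 0, with a mean of -0.012 ± 0.084 and a 95% interval of -0.26 to 0.23 (n = 3, limma adjusted p = 0.945). It had the smallest spread between arrays of the 8 members.

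Among the factors that bind the response element downstream of the interferon receptors, Irf2, the repressor and competitor of Irf1, stood apart on the adenoma side. Its log2 ratio was 1.77, 0.64 and 1.39 on arrays 1, 2 and 3. All arrays lay above 0, again with array 2 the least. The mean was 1.27 ± 0.57 (SD, n = 3 arrays), a 2.41-fold ratio toward adenoma, with a 95% interval of 0.77 to 1.77 and a limma adjusted p of 0.0123. It held place 50 from the highest of the named genes, and 2 of the 979 receptor genes were as high, so that Irf2 lay inside the range of that background, which leans above 0, while Irf7 lay outside it. Centred on the receptor genes, Irf2 still passed (0.92, limma adjusted p = 0.00688). Irf2 too rested on 1 row and lost its call without array 3 (1.21, limma adjusted p = 0.114).

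The distance between Irf2 and Irf7 within an array was 3.39, 1.34 and 2.85 log2 units on arrays 1, 2 and 3. It was widest on array 1 and narrowest on array 2. The spread of all rows followed the same order, with SDs of 0.569, 0.382 and 0.457, and its part in the order of the distances was not tested. The rows around these genes in the table were near 0: the median of 29 rows was 0.0050, -0.11 and 0.034 around Irf7 and -0.021, -0.19 and 0.085 around Irf2. With these running medians taken off, Irf7 had a mean of -1.23 (limma adjusted p = 0.0163) and Irf2 a mean of 1.31 (limma adjusted p = 0.0137).

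**Figure D1:**
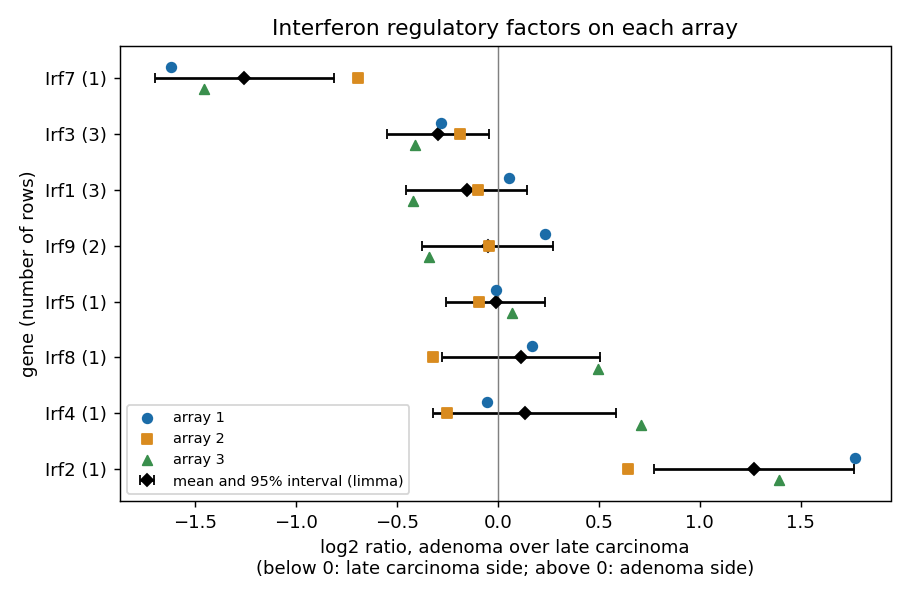
Log2 ratio of adenoma over late carcinoma (x axis) for each of the 8 members (y axis, with the number of rows), as coloured points for arrays 1, 2 and 3 and a diamond with a bar for the mean and its 95% interval from limma. Irf7 (mean -1.26) and Irf2 (mean 1.27) stand apart on opposite sides, and the other means lie between -0.30 and 0.13.

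Irf1, the activator that Irf2 competes with, had log2 ratios of 0.052, -0.099 and -0.42, with array 1 just above 0 and array 3 lowest. The mean was -0.16 ± 0.24 (n = 3, 95% interval -0.46 to 0.14, limma adjusted p = 0.392). Its 3 rows had means of -0.19, -0.036 and -0.24, and the second row ranged over the arrays from -0.52 to 0.80, which is wider than the distance between any of the row means. Array 3 was below 0 in all 3 rows. On array 1 the rows had -0.039, 0.80 and -0.60, and on array 2 they had -0.091, -0.39 and 0.18. The Irf1 values of arrays 1 and 2 thus average rows of opposite sign.

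Irf9, the DNA-binding subunit of the STAT complex, had 0.23, -0.044 and -0.34. The arrays lay on both sides of 0, and the mean was -0.051 ± 0.29 (n = 3, 95% interval -0.37 to 0.27, limma adjusted p = 0.806). Its 2 rows disagreed: the first had -0.28, -0.21 and -0.38 (mean -0.29, limma adjusted p = 0.0976 on its own) and the second 0.75, 0.12 and -0.31 (mean 0.19, limma adjusted p = 0.512). They met on array 3 and parted most on array 1, and on arrays 1 and 2 the gene mean averages values of opposite sign.

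**Figure D2:**
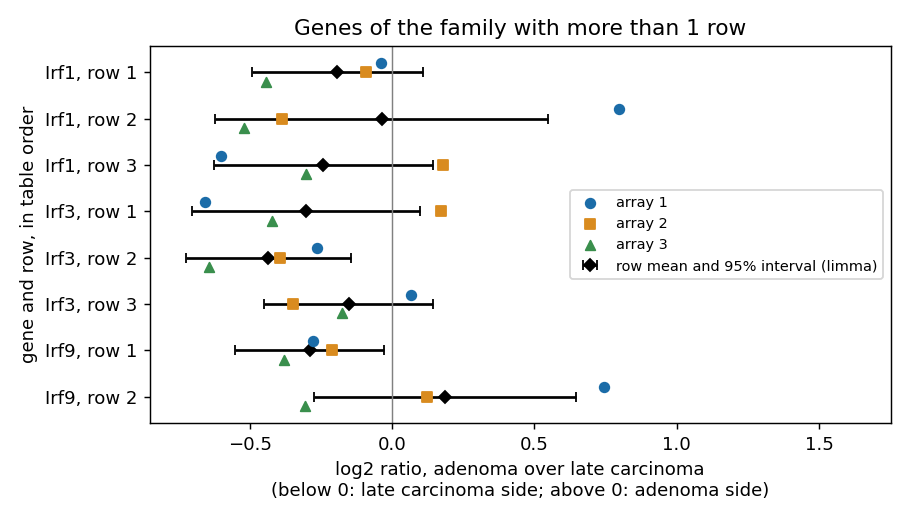
Log2 ratio of adenoma over late carcinoma (x axis) for each row of Irf1, Irf3 and Irf9 (y axis, in table order), with points for arrays 1, 2 and 3 and a diamond with a bar for the row's mean and 95% interval from limma. The second row of Irf1 and the second row of Irf9 spread most over the arrays (SD 0.725 and 0.529), and the first row of Irf1, the second row of Irf3 and the first row of Irf9 lie below 0 on each array.

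The factors of the blood cell lineages scattered widely between arrays, as did Irf2 and Irf7 (SD 0.57 and 0.49). Irf4, needed in plasma cells and activated T cells, had log2 ratios of -0.055, -0.25 and 0.71, and Irf8, needed in monocytes and dendritic cells, had 0.17, -0.32 and 0.50. In both, array 3 was highest and array 2 lowest. The means were 0.13 ± 0.51 for Irf4 (95% interval -0.32 to 0.59, limma adjusted p = 0.633) and 0.11 ± 0.41 for Irf8 (95% interval -0.28 to 0.51, limma adjusted p = 0.638), with n = 3 each and 1 row each. Both means turned below 0 without array 3 (-0.15 and -0.078) and with receptor centring (-0.22 and -0.24), with no call in any of these settings.

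Across the family, 1 member passed below 0 and 1 above 0 at a limma adjusted p of 0.05. Among all genes and probes tested, 9.21% passed below 0 and 15.9% above 0, or 25.1% in all, so the share of 2 of 8 is near the background and is no result about the family. The median of the 8 means was -0.031, against -0.027 for the named genes. A mean of at least 2-fold was seen in 2 of the 8 members and in 378 of the named genes, or 2.51%. Of these 378, 61 lay below 0 and 317 above 0. Among the 979 receptor genes, 57, or 5.82%, reached that size, all above 0. These counts stand as a description, with no test. The 3 arrays had the same sign for 3 of the 8 members (Irf2, Irf3 and Irf7), against 63.2% of the named genes. By array, 4, 7 and 4 members lay below 0 on arrays 1, 2 and 3.

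**Figure D3:**
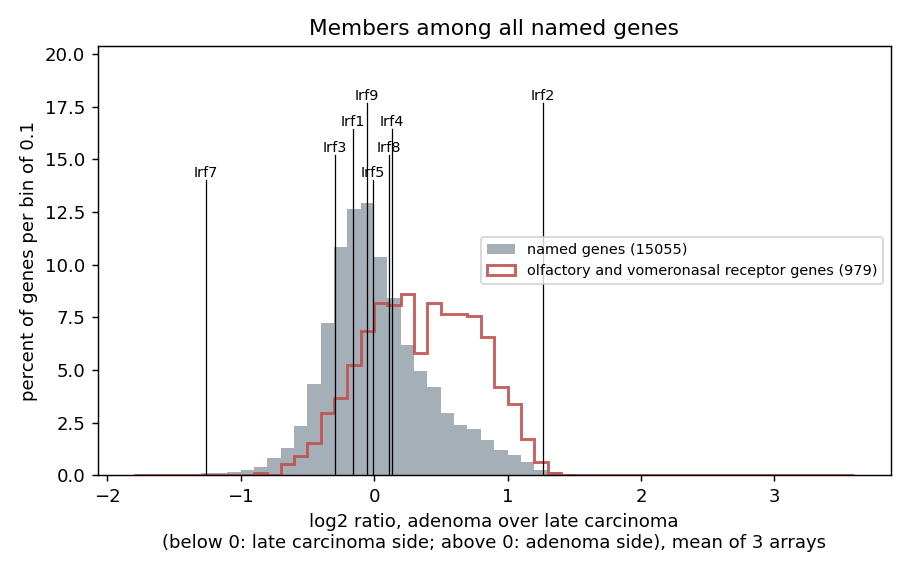
Share of genes (y axis, percent per bin of 0.1) by mean log2 ratio of adenoma over late carcinoma (x axis), for the 15055 named genes (filled) and the 979 olfactory and vomeronasal receptor genes (outline), with a line at each member's mean. Irf7 lies left of every receptor gene, and Irf2 lies in the right tail of the receptor genes. The other 6 members lie between them, from Irf3 at -0.30, with 17.4% of the named genes as low, to Irf4 at 0.13.

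The other genes of the pathway were taken from lists chosen with earlier results of these data known, and are given by counts with no test of a list, to be read beside the 9.21% below 0 and 15.9% above 0 over all genes and probes. Of 12 measured binding partners and cofactors, 2 passed below 0 and 0 above 0, with a median of -0.092 (-0.031 without array 2). Spi1, whose product PU.1 recruits IRF4 and IRF8 to composite sites, had log2 ratios of -2.24, -0.77 and -0.95, with array 1 far below the others. Its mean was -1.32 ± 0.80 (limma adjusted p = 0.0190), and -0.86 without array 1 (limma adjusted p = 0.00975). Batf3, which works with IRF8 in cross-presenting dendritic cells, had -0.46, -0.36 and -0.74 (mean -0.52 ± 0.19, limma adjusted p = 0.0238), below 0 on each array. Irf8 itself had no call. Batf3 did not pass with the running median taken off (-0.36, limma adjusted p = 0.0676), and neither passed without array 3 (limma adjusted p = 0.114 for Spi1 and 0.181 for Batf3).

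Among 22 measured sensors, adaptors and kinases upstream of Irf3, Irf5 and Irf7, 3 passed below 0 and 3 above 0, with a median of 0.058. The share of 27.3% called is near the 25.1% of all genes and probes and is no result about the list. On the late carcinoma side, the DNA receptor gene Tlr9 had -0.47, -0.38 and -0.56 (mean -0.47 ± 0.090, limma adjusted p = 0.0225), and Ticam2, an adaptor of Toll-like receptor 4, had -0.30, -0.60 and -0.67 (mean -0.52 ± 0.19, limma adjusted p = 0.0232). On the adenoma side, Ifih1, which encodes the cytosolic sensor of double-stranded RNA MDA5, had 0.72, 0.71 and 0.95 (mean 0.79 ± 0.14, limma adjusted p = 0.0117), and Tlr3, the endosomal receptor gene for the same kind of RNA, had 0.87, 0.61 and 1.09 (mean 0.86 ± 0.24, limma adjusted p = 0.0118). Each of these 4 genes kept its sign on the 3 arrays, for Tlr9 as the mean of its 2 rows. These rows differed. The first had a mean of -0.81 and passed on its own (limma adjusted p = 0.0105). The second had 0.070, -0.27 and -0.19 (mean -0.13) and did not pass (limma adjusted p = 0.467). The remaining calls, named here after their values were seen, were Tlr8, a receptor for single-stranded RNA, below 0 (-0.36 ± 0.047) and Ifi204, of a family of DNA-binding interferon-induced proteins, above 0 (0.90 ± 0.57), so sensors of either kind of nucleic acid stood on both sides. Tlr9 did not pass with the running median taken off (limma adjusted p = 0.0579), nor Ticam2 without array 2 (0.0549). The kinase genes did not pass. Tbk1 had -0.62, -0.16 and -0.13 (limma adjusted p = 0.136), and Ikbke, which encodes IKK-epsilon, had 0.30, 0.11 and 0.25 (limma adjusted p = 0.167).

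Of 20 measured interferon genes, 4 passed below 0 and 0 above 0, or 20.0% called against 25.1% of all genes and probes, and the median was -0.25. The highest of them, Ifna13, named after its values were seen, had 1.78, 0.12 and 0.70 and did not pass (mean 0.87 ± 0.84, limma adjusted p = 0.0670). Ifna1 had -0.36, -0.48 and -0.39 (limma adjusted p = 0.0301), Ifna6 had -0.31, -0.73 and -0.42 (0.0315), Ifnl3, a type III interferon, -0.29, -0.37 and -0.55 (0.0380) and Ifnab -0.25, -0.41 and -0.53 (0.0417). Interferon alpha genes are near-identical copies, so a row may hold signal of several, and their ratios are uncertain one by one. Ifnb1, the interferon that Irf3 induces first, had -0.68, -0.17 and -0.27 and did not pass (mean -0.37 ± 0.27, limma adjusted p = 0.0816). None of the 4 that passed did so without array 2 or without array 3 (limma adjusted p 0.0798 to 0.116 and 0.159 to 0.257), and with the running median taken off Ifnab alone of them passed.

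Of 16 measured receptors, Janus kinases, STATs and inhibitors, 0 passed below 0 and 1 above 0, with a median of 0.068 (-0.053 without array 1). Jak1, the kinase shared by all interferon receptors, had 1.30, 0.67 and 0.61 (mean 0.86 ± 0.38, limma adjusted p = 0.0146), with array 1 highest. Stat2, the partner of IRF9, had -0.28, -0.31 and -0.27, the arrays lying within a narrow band (mean -0.29 ± 0.024). It did not pass (limma adjusted p = 0.0788) but passed with array weights (limma adjusted p = 0.0414), with the running median taken off (0.0260) and with receptor centring (0.00455). Array weights called 38.8% and receptor centring 61.6% of all genes and probes, against 25.1% without them, and receptor centring moves every mean down. Ifnar1, a chain of the type I receptor, had 0.095, -0.18 and 0.082 and a mean of -0.0013 ± 0.16 (limma adjusted p = 0.994).

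Among 40 measured interferon-induced target genes, 6 passed below 0 and 2 above 0, with a median of -0.17 against -0.027 for the named genes. The share of 20.0% called is under the 25.1% of all genes and probes, so the count is no result about the targets. On the late carcinoma side, Oasl2, of the oligoadenylate synthetase family, had -0.85, -0.64 and -0.60 (mean -0.70 ± 0.13, limma adjusted p = 0.0118) and the exonuclease gene Isg20 had -1.10, -0.82 and -0.40 (mean -0.77 ± 0.35, limma adjusted p = 0.0164). On the adenoma side, the guanylate-binding protein gene Gbp6 had 0.66, 0.59 and 1.18 (mean 0.81 ± 0.32, limma adjusted p = 0.0136) and Trim30a, of the tripartite motif family, had 0.39, 0.49 and 0.64 (mean 0.51 ± 0.13, limma adjusted p = 0.0201). The targets thus passed in both directions, and Trim30a lost its call with receptor centring (0.16, limma adjusted p = 0.262). Of the fixed panel, Ifit1, an antiviral RNA-binding protein gene, had -0.39, -0.11 and -0.21 (limma adjusted p = 0.153) and the ubiquitin-like modifier gene Isg15 had -0.28, -0.051 and -0.32 (limma adjusted p = 0.190). Both lay below 0 on all 3 arrays, and neither passed. Other targets that did not pass, named after their values were seen, reached further on both sides, with the tether gene Bst2 at -0.60 ± 0.52 and the antiviral gene Rsad2 at 0.33 ± 0.064. All 4 targets named as passing did so with arrays 1 and 3 or arrays 2 and 3 alone, and none with arrays 1 and 2 alone.

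Promoter windows were found for 30 of the 40 targets, and 16 of these, or 53.3%, held the letters GAAANNGAAA that the Irf2 window also holds, against 3.99% of all genes with a window. Of the 16 targets with a match, 1 passed below 0 and 1 above 0, and their median was -0.22. Of the 14 without, 5 passed below 0 and 0 above 0, and their median was -0.18. Over all named genes, 7.62% of the 512 with a match passed below 0 and 20.1% above 0, against 9.26% and 16.1% of the 11659 without. Shares of promoters with the motif and calls on either side thus stand side by side with no test between them.

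**Figure D4:**
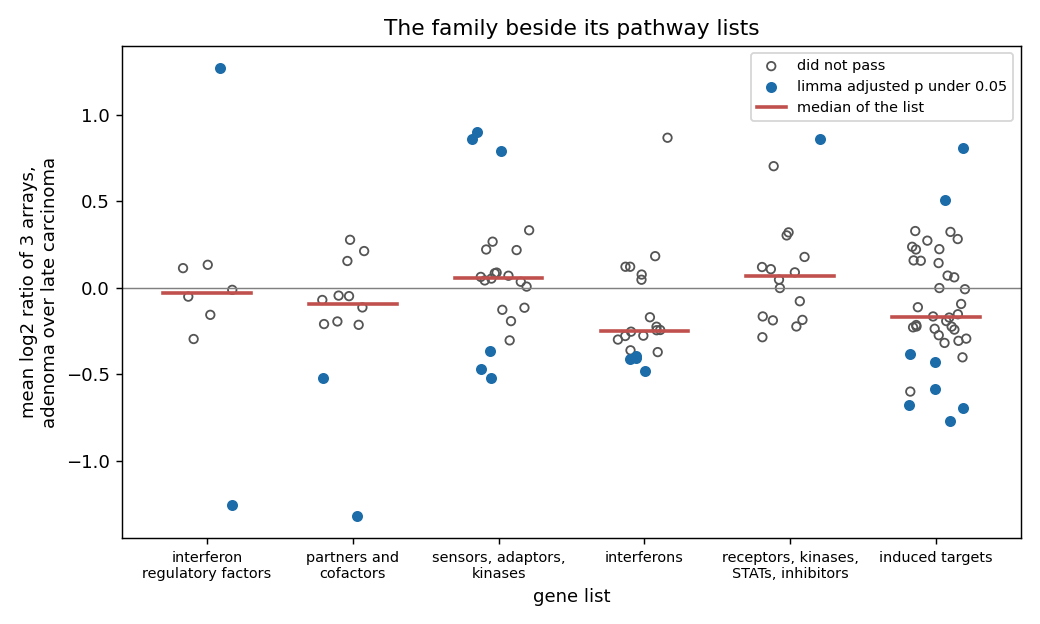
Mean log2 ratio of adenoma over late carcinoma (y axis) of each measured gene in the family and in 5 pathway lists (x axis), filled where the limma adjusted p was under 0.05, with a red bar at each list's median. The family has the widest reach with Irf2 and Irf7 at 1.27 and -1.26, the interferons have the lowest median (-0.25), and Spi1 at -1.32 is the lowest gene of the lists.

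Marker lists of cell types that express members of the family went both ways. Over all genes and probes, 9.21% passed below 0 and 15.9% above 0. Of the 979 receptor genes, 26 passed below 0 and 426 above 0. No marker list was tested against these shares. With 9 to 12 measured genes per list, the counts are a description and no result about a cell type. Of 10 measured myeloid markers, 1 passed below 0 (Itgam, an integrin chain, -1.09 ± 0.27) and 2 above 0 (among them the protease gene Ctss, 0.97 ± 0.26), with a range of -1.09 to 0.97. Of 12 dendritic cell markers, 1 passed below 0 (the chemokine receptor gene Xcr1, -0.71 ± 0.38, not past it with the running median taken off) and 2 above 0 (among them H2-Aa, 0.78 ± 0.27). B and plasma cell markers had 0 of 9 past the threshold in either direction, with the smallest p for Pou2af1 (0.36 ± 0.29, limma adjusted p = 0.0927) and Cd79a (0.28 ± 0.13, limma adjusted p = 0.0994). Of 9 T and NK cell markers, 1 passed below 0 and 3 above 0 (among them Cd3g, 0.75 ± 0.11, and Ncr1, 0.94 ± 0.53). Of 12 mammary epithelial markers, 1 passed below 0 and 5 above 0, led by the milk protein genes Wap (2.44 ± 0.41) and Csn2 (1.48 ± 0.46). The marker that passed below 0, named after its values were seen, was the keratin gene Krt19 (-1.16 ± 0.35, limma adjusted p = 0.0117). Levels of these markers were not available from ratios, and the part of any cell type in the ratios of the family was not tested.

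The pattern of Irf7 over the 3 arrays was closest, by root mean square difference, to that of Lcn2 (difference 0.080), the gene of an iron-scavenging secreted protein, with log2 ratios of -1.63, -0.57 and -1.39. The histone gene H2ac20 (0.14) and Tfap2d (0.15) came next. The pattern of Irf2 was closest to those of Hsd17b6 (0.054), Mcf2 (0.059) and Vnn1 (0.061), and Hsd17b6 had 1.76, 0.72 and 1.45. This likeness rests on 3 values per gene, and the genes were picked for it from the named genes with the same sign on every array. Their ratios were largest in absolute size on array 1 and smallest on array 2, as was the spread of all rows.

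**Figure D5:**
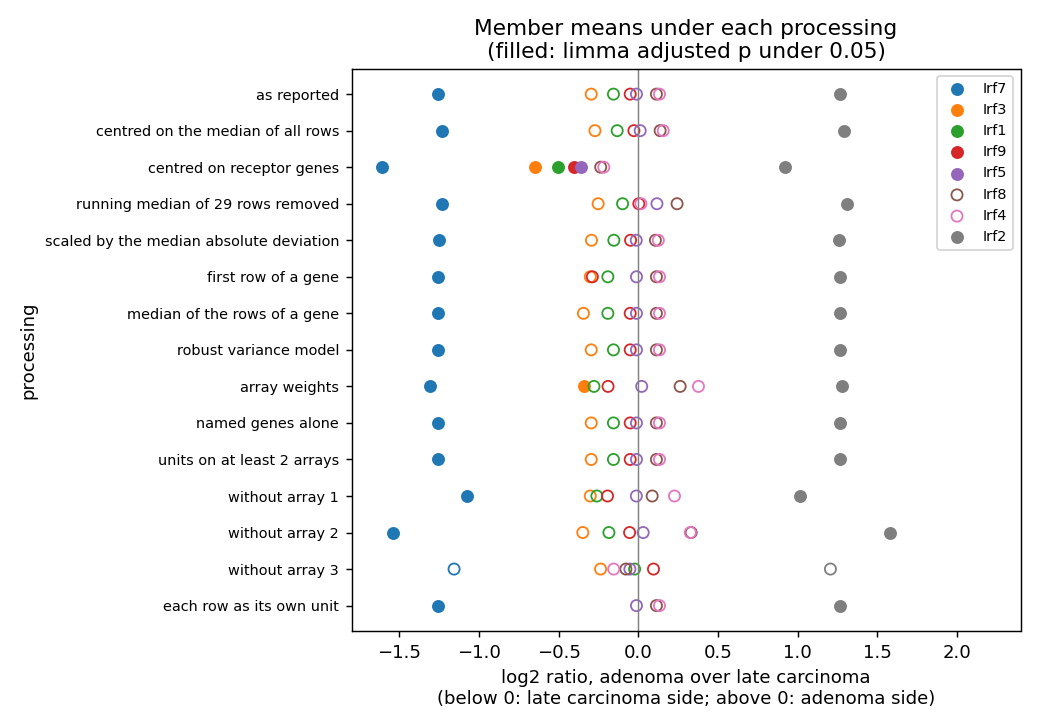
Mean log2 ratio of adenoma over late carcinoma (x axis) of each member under each way of processing (y axis), filled where the limma adjusted p was under 0.05. Irf7 and Irf2 keep their side in every setting and lose their call without array 3, and centring on the receptor genes moves all members toward the late carcinoma side, where Irf1, Irf3, Irf5 and Irf9 then pass.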

How the data were processed

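Of 3 arrays with 2 channels, the authors deposited 1 log2 ratio per row, a reading taken from the values, with dyes per the labels. How spots were scanned, corrected and normalized is not given in the sources used here. Of 38976 rows, 22973 had 1 gene symbol in the platform annotation (0 had several, 16003 none), and all 22973 matched a GRCm38.p6 gene by identifier. The mean of a gene's rows was taken on each array, and 31058 genes and unnamed probes with values on 3 arrays entered limma 3.58.1 (R 4.3.3), whose moderated two-sided test compared each mean with 0, with Benjamini-Hochberg adjustment over all of them and a threshold of 0.05. The fit was tested on simulated data.

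Named genes were the members, up to 4 passing genes per pathway list with the smallest p, a fixed panel (such as Stat2, Tbk1, Ifnb1 and Isg15), 2 genes with the smallest p per marker list, and the 3 genes closest to each passing member over the arrays. Members and lists were chosen with earlier results of these data known. Alternatives were other centring, scaling, row summaries, variance models, array weights, sets of units, a threshold of 0.1 and leaving out each array. Motifs were matched exactly in RefSeq promoter windows. Figures used matplotlib 3.10.9 in Python 3.11.15.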

Additional observations from a re-analysis of the deposited data

How the results depend on the processing

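The 2 calls of the family numbered 2 or 3 under every alternative but centring on the receptor genes, which gave 6 (5 below 0, 1 above 0), and leaving out an array, which gave 0 to 2, with 0 without array 3. The 7809 calls over all units (2861 below 0, 4948 above 0) became 19138 (16861 below 0) with receptor centring, 12036 with array weights, 4274 with named genes alone, where fewer units were tested, and 1 to 7324 with an array left out, 1 being the count without array 3. Receptor centring takes 0.41, 0.28 and 0.365 off every ratio of arrays 1, 2 and 3, so it moves all means down by construction. Under it the calls numbered 9 of 12 partners, 12 of 22 sensors, 14 of 20 interferons, 8 of 16 receptor and STAT genes and 28 of 40 targets. With an array left out, the median ran from -0.14 to -0.031 for the partners, 0.055 to 0.074 for the sensors, -0.28 to -0.18 for the interferons, -0.053 to 0.083 for the receptor and STAT list and -0.17 to -0.13 for the targets. Of 109 member values under alternatives, 10 changed sign, for Irf4, Irf5, Irf8 and Irf9, none of them called. Where no cause is given, the cause was not tested. Each ratio already pairs the stages within an array, and no further replicate block could be fitted, since the labels give no replicate numbers.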

Other observations

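The nearest protein-coding neighbours of Irf7 and Irf2 on their chromosomes, named from the GRCm38.p6 gene table, had small ratios where they had rows. Cdhr5, a cadherin-related gene beside Irf7, had log2 ratios of -0.24, -0.33 and -0.18 (mean -0.25 ± 0.072, limma adjusted p = 0.115), and Enpp6, beside Irf2, had -0.071, -0.090 and -0.11 (mean -0.089 ± 0.017, limma adjusted p = 0.542). Beside members that had no call, Exoc2, an exocyst gene next to Irf4, passed above 0 (0.84 ± 0.38, limma adjusted p = 0.0152), and Tnpo3, which overlaps Irf5 and encodes a nuclear import receptor, passed below 0 (-0.40 ± 0.13, limma adjusted p = 0.0379). The other measured neighbours of the members did not pass. Over all genes and probes 25.1% passed, so these calls are no result about the neighbours. All neighbours were looked at after the values were seen.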
